A study of Mus musculus with 45 samples.

Results

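Chromatin accessibility was compared between mouse embryonic stem cells depleted of OCT4 for 6 h and untreated cells of the same line. The comparison rests on 4 of the 45 samples of the series, 2 libraries at 6 h of depletion and 2 untreated libraries, chosen by their sample labels. The OCT4-FKBP line is a V6.5 embryonic stem cell line in which OCT4, encoded by Pou5f1, is fused to an FKBP domain. The small molecule dTAG-13 (500 nM) directs the fusion protein to the proteasome, and cells labelled NT (not treated) received the solvent DMSO, which per the labels went in together with the latest of the dTAG-13 treatments. All groups grew without serum and with LIF and inhibitors of MEK and GSK3, a medium that holds cells in the naive state. The same line was also sampled at 2 h and 24 h of depletion, and SOX2-FKBP and NANOG-FKBP lines of another parental stem cell line, E14, served for comparison. Only 1 OCT4-FKBP line was used, and the level of OCT4 protein was not part of these data.

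OCT4 is a POU-domain transcription factor that is required for pluripotency. It binds an octamer in DNA, and together with SOX2 it binds a composite site in which a SOX motif lies directly beside a POU motif. Both proteins are described as pioneer factors, because they can bind DNA that is wrapped in nucleosomes and help to keep enhancers open. In ATACseq the Tn5 transposase inserts into accessible DNA, so the number of fragments over an open chromatin region (OCR) measures how accessible it is. The p-values rest on the spread between replicates over the 27 libraries of all lines fitted together, not on the 4 compared libraries alone. The labels do not say that replicates were separate cultures, so this spread may be technical. In bulk cells, a partial loss in every cell and a full loss in some of the cells cannot be told apart.

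The OCT4-FKBP libraries used here held 12917698 and 17575631 counts at NT and 17071452 and 16201344 counts at 6 h. Between 2.19% and 6.65% of the counts of these libraries lay in mitochondrial peaks, with the highest share in NT replicate 1, and its part in the results was not tested. Chromosome 8 took 7.41% to 7.71% of the counts in all 4 libraries, against 5.17% to 5.35% in the fitted SOX2-FKBP libraries. The part of this difference in the results was not tested. Promoter OCRs were present for 7 of 8 embryonic stem cell marker genes, at 76.1 to 357 normalized counts in NT cells, and for 5 of 8 fibroblast marker genes, at 11.2 to 138, against a median of 146 for 15808 promoter OCRs of coding genes. Of these 12 marker promoters, 1 changed, that of Nanog, described below.

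At 6 h of OCT4 depletion 13260 OCRs lost and 6859 gained accessibility, 7.97% and 4.12% of the 166430 OCRs tested (edgeR's quasi-likelihood test, adjusted p threshold 0.05). The median log2 fold change was -1.61 at lost OCRs, 1.15 at gained OCRs and 0.01 over all OCRs. The typical lost OCR kept 32.7% of its NT level and the typical gained OCR reached 223% of it. Losses were the steeper changes, since 4068 OCRs fell by at least 2 log2 units and 389 rose by as much. At 229 lost OCRs both 6 h libraries were under 10% of the NT mean.

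The levels in single libraries describe the called OCRs and are no further support, since the calls were made from these same libraries. Lost OCRs had medians of 43.6 and 51.1 normalized counts in the NT libraries and of 13.5 and 14.7 in the 6 h libraries. Gained OCRs had medians of 29.6 and 30.8 at NT and of 67.3 and 70.9 at 6 h. Both 6 h libraries lay below both NT libraries at 13178 of the 13260 lost OCRs (24.2% of all OCRs tested had this order), and above both at 6812 of the 6859 gained OCRs (24.0% of all). The replicate numbers pair the libraries, and a fit blocked on them called 18082 OCRs lost and 14649 gained. Losses made up 65.9% of the called OCRs, 55.2% with the block, 54.9% with offsets for GC content and 48.5% with both. Without NT replicate 2 the numbers were 8561 lost and 4029 gained, and without NT replicate 1 4191 were gained.

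**Figure D1:**
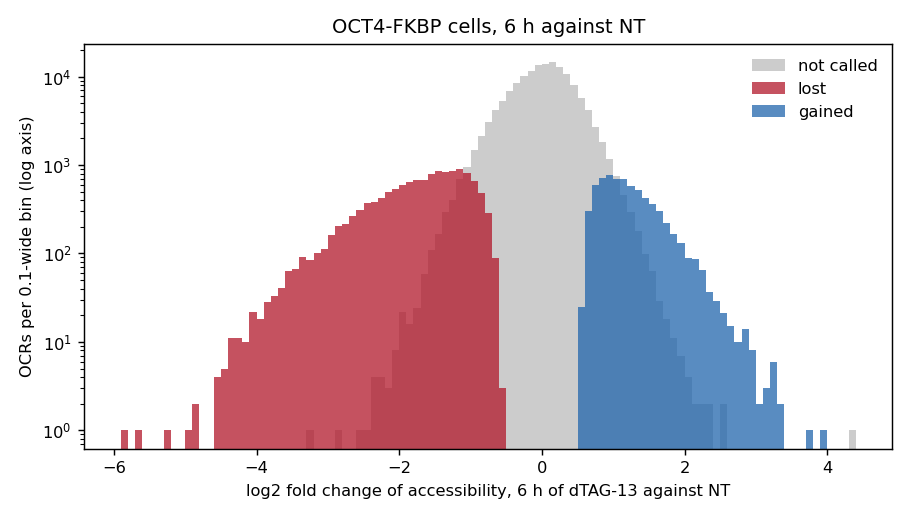
Number of OCRs (log axis, bins of 0.1) by log2 fold change at 6 h of OCT4 depletion against NT, for lost (red), gained (blue) and other OCRs (grey), from 2 libraries per group. The lost OCRs reach further from 0 than the gained OCRs, with 711 at or under -3 and 15 at or over 3.

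Distal OCRs carried nearly all of the losses. An OCR was called a promoter where its summit lay within 500 bp of the start of a coding or long non-coding transcript, and all others are distal. Promoters were 11.1% of the OCRs tested, 2.19% of the lost OCRs (290) and 9.27% of the gained OCRs (636). Within each class 1.57% of promoters, 3.11% of exonic, 7.92% of intronic and 10.9% of intergenic OCRs were lost. Gained OCRs were 3.45%, 3.05%, 4.3% and 4.29% of these classes. With promoters limited to coding genes, 159 promoters were lost and 490 gained. The share of promoters among the gained OCRs was below their share of all OCRs. This direction turned in the fit blocked on the replicate number, where 2325 of 14649 gained OCRs and 500 of 18082 lost OCRs were promoters. It also turned when 6 h replicate 2 was left out. With the block and GC offsets together 995 of 16644 gained OCRs were promoters, again a smaller share than among all OCRs. Leaving out NT replicate 2 gave 177 lost and 262 gained promoters. Without NT replicate 1 335 promoters were gained, without 6 h replicate 1 256, and without 6 h replicate 2 181 were lost. The median promoter lay 0.19 log2 units above the median of all OCRs, but 0.03 below it (median difference -0.03) once offsets for GC content were fitted.

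**Figure D2:**
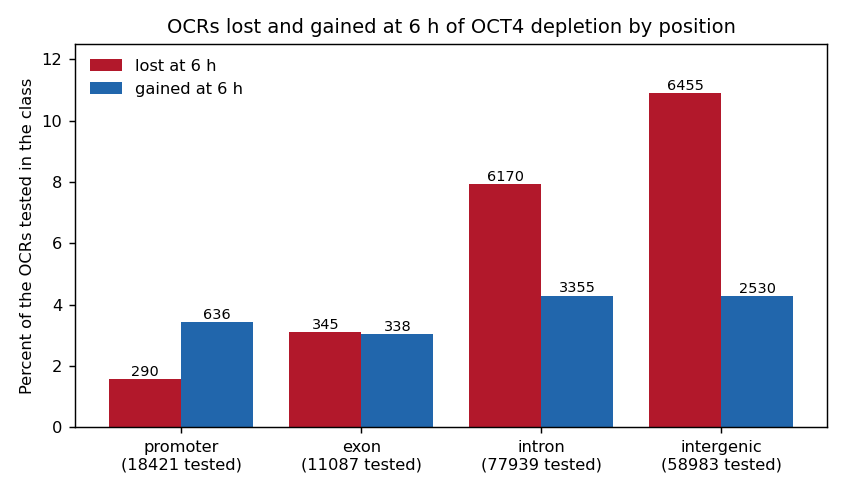
Share of the tested OCRs of each position class that were lost (red) or gained (blue) at 6 h of OCT4 depletion, with the number of OCRs above each bar. The lost share goes from 1.57% of promoters to 10.9% of intergenic OCRs, while the gained share stays between 3.05% and 4.3%.

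Lost OCRs also lay further from genes. The median distance to the nearest coding transcript start was 34972 bp for lost, 18493 bp for gained and 19156 bp for all OCRs, and 26.2% of lost OCRs were more than 100 kb away against 11.2% of gained and 14.2% of all. Their summit windows of 300 bp had a median GC content of 46.7%, against 53% at gained and 51.0% at all OCRs. Losses occurred on every chromosome, from 6.16% of the OCRs of chromosome 11 to 13.8% of those of the X among the chromosomes with over 1000 OCRs. In the reference genome, most of the summit window was marked as repeat in 20.5% of lost OCRs, 4.61% of gained and 13% of all OCRs.

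Lost OCRs held the composite SOX-POU motif and the octamer more often than gained OCRs. The composite SOX-POU motif, searched on both strands of the summit window, was present in 4.85% of lost OCRs, 0.19% of gained OCRs and 0.707% of all OCRs. The octamer ATGCNAAT was present in 19.9% of lost, 1.17% of gained and 4.87% of all OCRs. The SOX motif ACAATG occurred in 22.7%, 17.1% and 14.5%, but in 20.7% of lost and 20.0% of gained OCRs when these were called with offsets for GC content. Matches of the 3 patterns can overlap, and a match is a description of the letters and no proof of binding. Because lost OCRs are poorer in GC, the shares were also taken within 3 ranks of GC content of nearly equal size. At the lowest GC content the octamer stood in 21.3% of lost, 1.7% of gained and 8.04% of all OCRs, and at the highest in 12.8%, 0.763% and 1.88%. The SOX motif stood in 25.8% of lost and 24.8% of gained OCRs at the lowest GC content, in 17.5% and 19.6% at the middle and in 12.0% and 11.8% at the highest, and its order between lost and gained OCRs was not the same in every rank.

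These sequences are the 300 bp summit windows of the distal OCRs named below for their losses that hold a composite motif or an octamer. Added are the windows of 2 further lost OCRs, in Lats2 and near Dppa3, which hold an octamer and whose loss differed from that after SOX2 depletion. They are read 5′ to 3′ on the plus strand of the reference genome (mm10, GRCm38), and capitals mark the composite motif or octamer on either strand. V6.5 cells are not of the reference strain alone, so single bases may differ in the cells. All windows shown were picked for holding a motif. The losses at Tfcp2l1, Ccn2 and Myc OCRs named below also differed from those after SOX2 depletion. Their windows are not shown, and those of Ccn2 and Myc hold neither an octamer nor a composite motif.
Tex13c1 OCR, chrX:43467337-43467636: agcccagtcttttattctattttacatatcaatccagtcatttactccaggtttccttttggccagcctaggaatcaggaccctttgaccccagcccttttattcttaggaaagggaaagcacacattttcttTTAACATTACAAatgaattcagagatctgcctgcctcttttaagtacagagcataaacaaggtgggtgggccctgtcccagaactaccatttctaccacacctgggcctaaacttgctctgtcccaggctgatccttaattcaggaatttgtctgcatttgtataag
Ncam2 OCR, chr16:81481065-81481364: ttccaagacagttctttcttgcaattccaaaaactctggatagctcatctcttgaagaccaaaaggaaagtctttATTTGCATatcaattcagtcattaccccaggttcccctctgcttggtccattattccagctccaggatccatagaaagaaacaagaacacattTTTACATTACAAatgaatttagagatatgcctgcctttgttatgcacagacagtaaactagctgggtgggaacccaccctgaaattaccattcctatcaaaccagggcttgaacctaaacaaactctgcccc
lost Lrmda OCR, chr14:22058810-22059109: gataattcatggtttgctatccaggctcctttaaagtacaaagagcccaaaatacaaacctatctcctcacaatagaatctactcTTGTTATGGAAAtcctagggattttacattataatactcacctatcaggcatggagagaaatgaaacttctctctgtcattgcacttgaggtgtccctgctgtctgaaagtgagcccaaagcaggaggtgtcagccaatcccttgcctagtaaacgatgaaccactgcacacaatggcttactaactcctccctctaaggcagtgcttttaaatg
Speer2 OCR, chr16:69951631-69951930: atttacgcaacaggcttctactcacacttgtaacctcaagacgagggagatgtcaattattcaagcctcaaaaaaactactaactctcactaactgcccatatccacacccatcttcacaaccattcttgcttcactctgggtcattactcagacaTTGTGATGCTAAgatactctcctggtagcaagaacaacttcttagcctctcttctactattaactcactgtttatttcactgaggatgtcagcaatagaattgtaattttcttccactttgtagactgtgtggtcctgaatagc
Astn2 OCR, chr4:66330705-66331004: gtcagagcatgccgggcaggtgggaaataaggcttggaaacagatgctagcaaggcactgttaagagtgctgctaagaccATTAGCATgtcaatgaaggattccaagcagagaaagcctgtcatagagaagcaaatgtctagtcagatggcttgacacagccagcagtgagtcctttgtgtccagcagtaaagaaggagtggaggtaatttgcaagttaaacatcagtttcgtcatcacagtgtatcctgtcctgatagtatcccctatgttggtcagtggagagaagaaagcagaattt
Xkr4 OCR, chr1:3482910-3483209: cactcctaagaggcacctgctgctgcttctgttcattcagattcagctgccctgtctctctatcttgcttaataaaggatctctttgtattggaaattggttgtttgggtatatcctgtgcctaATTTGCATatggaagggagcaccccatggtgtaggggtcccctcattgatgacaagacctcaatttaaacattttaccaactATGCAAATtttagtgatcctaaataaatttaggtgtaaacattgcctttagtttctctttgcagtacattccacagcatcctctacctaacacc
Lats2 OCR, chr14:57732735-57733034: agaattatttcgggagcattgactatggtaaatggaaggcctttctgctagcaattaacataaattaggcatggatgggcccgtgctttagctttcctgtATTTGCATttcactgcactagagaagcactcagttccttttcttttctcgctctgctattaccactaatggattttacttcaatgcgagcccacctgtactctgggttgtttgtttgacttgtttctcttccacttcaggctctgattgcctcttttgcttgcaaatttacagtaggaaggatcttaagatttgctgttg
Dppa3 OCR, chr6:122624520-122624819: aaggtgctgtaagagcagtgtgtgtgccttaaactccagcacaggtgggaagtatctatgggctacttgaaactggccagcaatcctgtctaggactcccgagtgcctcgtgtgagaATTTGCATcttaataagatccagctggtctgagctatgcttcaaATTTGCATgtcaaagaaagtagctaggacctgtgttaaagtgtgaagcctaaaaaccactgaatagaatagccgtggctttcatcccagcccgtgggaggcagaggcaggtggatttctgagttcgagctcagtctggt

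The Tex13c1 and Ncam2 windows resemble each other around the composite motif. Aligned on the motif without gaps, 28 of 40 bases were the same, against 13 to 18 of 40 for the other pairs of the 4 windows with this motif. Repeats, as marked in the reference, cover 59.3% of the Tex13c1 window and 31.3% of the Ncam2 window. Both octamers of the Dppa3 window and the octamer of the Lats2 window read ATTTGCAT on the plus strand.

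Among OCRs with a composite motif 54.7% of 1176 were lost and 1.11% gained, with a median log2 fold change of -1.15. Among OCRs with an octamer and no composite motif 31.6% of 7899 were lost and 1.0% gained, with a median of -0.55. A SOX motif without either went with 10.6% lost and 5.14% gained of 22483 OCRs. Of 134726 OCRs with none of the 3 motifs 5.74% were lost and 4.16% gained. These OCRs were 7734 of the lost OCRs, so most losses had no match to these short patterns within the window.

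**Figure D3:**
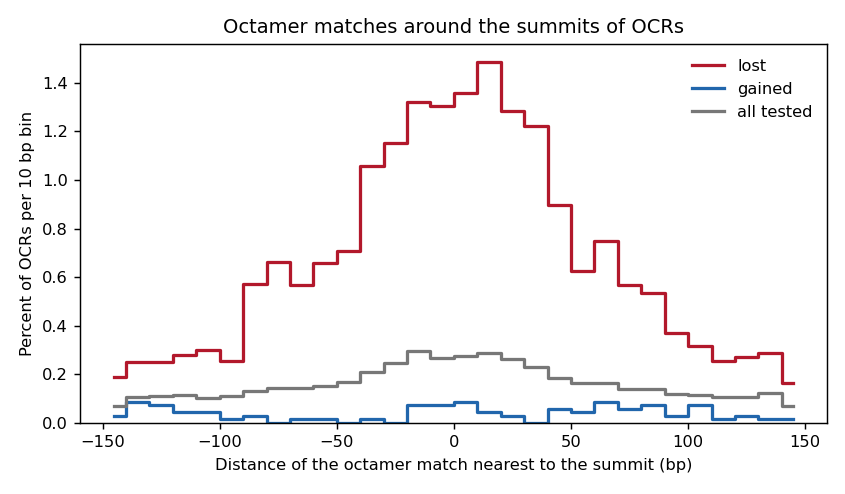
Percent of OCRs, per 10 bp bin, whose octamer match nearest to the summit lies at each distance, for lost (red), gained (blue) and all tested OCRs (grey). Octamers of lost OCRs gather at the summit, with 59.4% within 50 bp of it against 50.1% of those in all OCRs.

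Some of the other motifs searched were more frequent in gained OCRs, and not all motifs searched are given here. TGANTCA was present in 16.6% of gained, 11.3% of lost and 9.83% of all OCRs. It covers the site of AP-1 (the FOS and JUN family), which has C or G in the middle, but also matches with A or T there. TCAAGGTCA, the extended half-site bound by ESRRB, stood in 5.88% of gained, 1.66% of lost and 2.3% of all OCRs. GCCNNNGGC, the palindrome of TFAP2 factors, stood in 18% of gained, 7.12% of lost and 12.2% of all OCRs, within the lowest GC rank in 10.1%, 5.29% and 5.61%, and within the highest in 23.6%, 18.8% and 21.6%. The core of the CTCF site was rarer in both lost (0.302%) and gained (0.35%) than in all OCRs (1.71%). Among OCRs called with offsets for GC content the octamer stood in 19.1% of lost and 1.83% of gained OCRs, and TGANTCA in 10.6% and 17.1%. The ESRRB half-site stood in 1.24% and 7.07% of these, the TFAP2 palindrome in 8.51% and 13.1%, and the CTCF core in 0.301% and 0.995%. The gained share of the TFAP2 palindrome was then close to its share of all OCRs. The KLF pattern GGGNGTGG stood in 21.2% of gained, 18.3% of lost and 17.5% of all OCRs. With GC offsets its order turned, with 16.1% of gained and 20.5% of lost OCRs. The TEAD pattern GGAATG stood in 22.7% of gained, 23.1% of lost and 18.8% of all OCRs.

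Of the 8 distal OCRs named below for their gains, 3 hold the pattern TGANTCA, which is in capitals in these summit windows of the plus strand. Only the Lrrc8c match has the C or G in the middle that the AP-1 site has. The 3 windows are shown as the counterpart of the lost windows, since none of them holds an octamer or a composite motif.
Ctnnb1 OCR, chr9:120821041-120821340: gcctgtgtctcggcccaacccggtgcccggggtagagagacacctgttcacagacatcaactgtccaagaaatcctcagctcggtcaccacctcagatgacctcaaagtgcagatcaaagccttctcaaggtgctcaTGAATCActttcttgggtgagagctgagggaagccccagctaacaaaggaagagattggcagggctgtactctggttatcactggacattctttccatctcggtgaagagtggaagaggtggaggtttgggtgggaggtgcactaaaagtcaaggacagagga
Lrrc8c OCR, chr5:105568238-105568537: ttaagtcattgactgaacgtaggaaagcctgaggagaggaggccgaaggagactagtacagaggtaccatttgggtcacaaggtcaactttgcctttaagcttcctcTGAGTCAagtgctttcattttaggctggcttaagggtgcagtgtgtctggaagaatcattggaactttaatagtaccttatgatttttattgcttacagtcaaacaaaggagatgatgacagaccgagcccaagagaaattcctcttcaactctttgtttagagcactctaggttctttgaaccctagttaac
Mmp15 OCR, chr8:95358728-95359027: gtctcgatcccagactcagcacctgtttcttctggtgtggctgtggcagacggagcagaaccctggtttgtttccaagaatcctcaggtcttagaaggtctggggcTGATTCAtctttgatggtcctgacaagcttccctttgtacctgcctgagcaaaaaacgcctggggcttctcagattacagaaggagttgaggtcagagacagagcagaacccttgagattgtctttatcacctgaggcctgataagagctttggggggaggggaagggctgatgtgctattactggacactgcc

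OCRs were named by the size of their change among called OCRs with at least 50 normalized counts in the higher group and no overlap between the groups, and weaker OCRs with larger fitted changes are not named. The steepest loss under this rule was at an intergenic OCR at chrX:43466788-43468277, 123673 bp upstream of the Tex13c1 start. It had 141 and 140 normalized counts at NT and 1.84 and 3.52 at 6 h, which is 1.91% of the NT level and a log2 change of -5.64 (standard error, SE, 0.37, adjusted p = 2.59e-13, edgeR). An OCR in an intron of Ncam2, a neural cell adhesion molecule, at chr16:81480772-81482446 fell from 91.2 and 110 to 3.67 and 4.69. Its log2 change was -4.55 (SE 0.32, adjusted p = 8.95e-13, edgeR). At both OCRs the groups were far apart and the loss was nearly complete.

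The other 5 distal losses given here, of 8 that the rule names and 7 that are reported, kept 4.24% to 4.80% of their NT level. They lay in introns of Lrmda (-4.5), Astn2 (-4.35) and Xkr4 (-4.33), and in intergenic DNA near Speer2 (-4.37) and Sash1 (-4.36), where the values are log2 fold changes. Astn2 encodes astrotactin 2, which acts in neuronal migration. The Astn2 OCR had 148 and 102 counts at NT and 5.51 and 6.45 at 6 h. The Sash1 OCR at chr10:8889341-8889749, 3442 bp upstream of its start, fell from 146 and 142 to 7.96 and 5.86. The Sash1 window holds neither an octamer nor a composite motif.

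The lost promoters with the largest changes under the same rule belonged mostly to non-coding transcripts. The OCR at the start of Gm20609, at chr10:71310127-71310662, fell from 64.7 and 113 counts to 5.51 and 8.21, a log2 change of -3.68 (SE 0.39, adjusted p = 3.21e-09, edgeR). Promoter OCRs of Gm49162 (-3.52), Gm16249 (-3.34), AC131065.2 (-3.28) and Gm48868 (-2.63) were also lost, and the Gm16249 start lies beside the coding gene Eif4e1b, which encodes a relative of the cap-binding protein eIF4E. The coding promoter among the 6 was that of Ssr2, a subunit of the translocon-associated protein complex. It went from 439 and 331 counts at NT to 47.1 and 39.3 at 6 h, a log2 change of -3.15 (SE 0.32, adjusted p = 1.74e-09, edgeR). Its peak at chr3:88575418-88575981 has its summit 185 bp upstream of an annotated start.

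The largest gain under the rule was at chr9:120820884-120821476, 108025 bp upstream of Ctnnb1, the gene of β-catenin. It had 6.24 and 2.66 counts at NT and 34.9 and 79.7 at 6 h, a log2 change of 3.75 (SE 0.52, adjusted p = 9.11e-07, edgeR). The NT libraries were low and the 6 h libraries differed from each other by more than the NT libraries did. An OCR in an intron of Scube1 at chr15:83639883-83641198, whose nearest coding start is that of Ttll12 at 45179 bp, rose from 30.4 and 25 to 309 and 218 (3.26). An OCR in an intron of Mmp15, a membrane-bound metalloproteinase, rose from 42.1 and 33.5 to 365 and 279 (3.10).

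The further distal gains by size were near Ninj1 (3.24), Tmem132c (3.24), a second Lrmda region (3.16), Lrrc8c (3.12) and Phc2 (3.04). Ninj1 encodes a protein that acts in the rupture of the plasma membrane, Lrrc8c a subunit of volume-regulated anion channels and Phc2 a Polycomb protein. The Lrmda gene thus held an OCR that fell to 4.24% of its NT level and another, at chr14:22589064-22590119, that rose from 10.1 and 11.2 to 98.6 and 95 counts. The Tmem132c OCR went from 14 and 11.2 to 132 and 104. In all 8 of these OCRs both 6 h libraries lay above both NT libraries, which the rule for naming them required.

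Gained promoters included those of 2 troponin genes of skeletal muscle. The OCR at Tnnt3, which encodes fast skeletal troponin T, rose from 19.5 and 10.6 to 127 and 83.3 counts, a log2 change of 2.85 (SE 0.39, adjusted p = 6.79e-07, edgeR). The OCR at Tnni1, which encodes slow skeletal troponin I, rose from 18.7 and 20.2 to 91.2 and 89.7, a log2 change of 2.2 (SE 0.28, adjusted p = 1.94e-07, edgeR). The promoter of Klhdc7a rose from 35.1 and 77.6 to 334 and 385 (2.64). The promoter of Fxyd2, a regulatory subunit of the sodium pump, rose from 39.8 and 24.5 to 148 and 159 (2.28). The promoters of the non-coding transcripts Gm28884 (2.80) and Gm26608 (2.29) complete the 6.

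**Figure D4:**
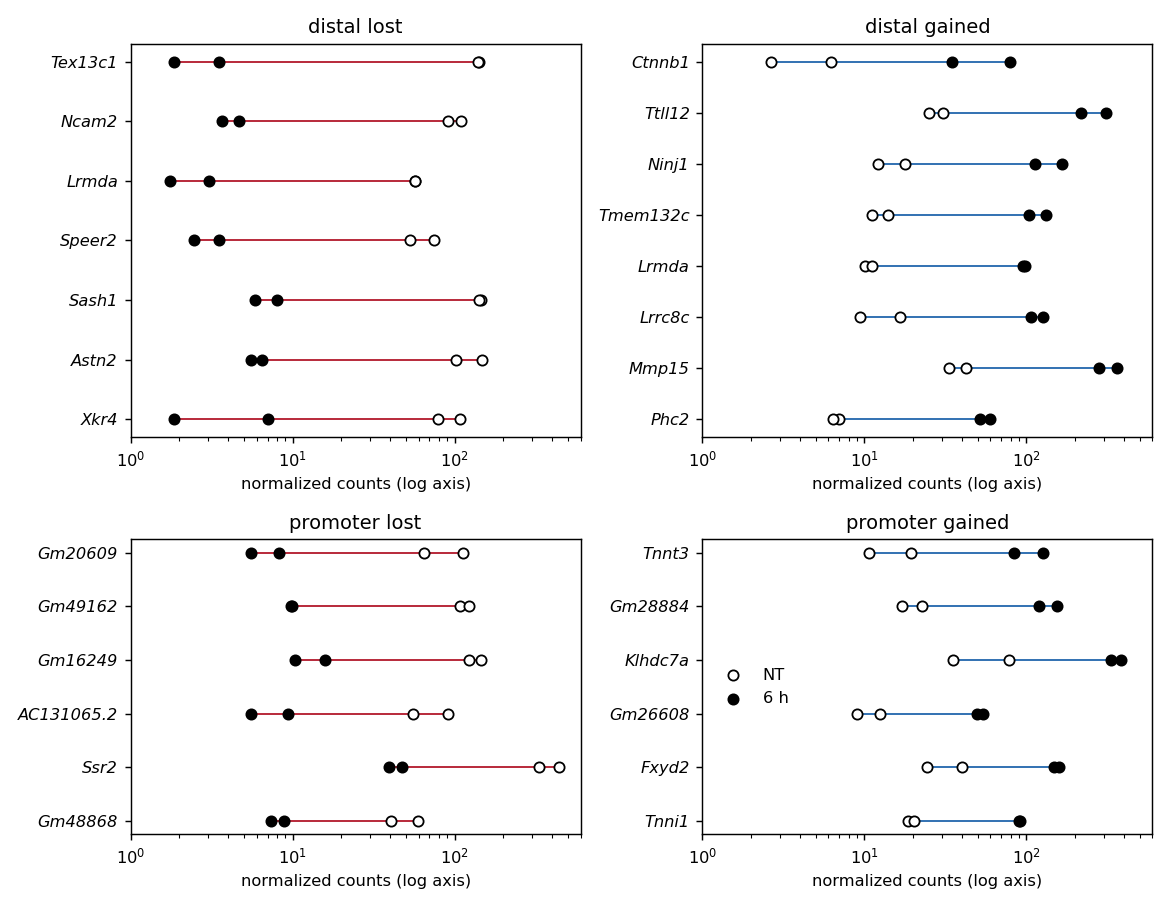
Normalized counts (log axis) in the 2 NT libraries (open circles) and the 2 libraries at 6 h of OCT4 depletion (filled circles) for 7 distal and 6 promoter OCRs with the largest losses (red lines) and 8 distal and 6 promoter OCRs with the largest gains (blue lines), named by nearest coding gene or, at non-coding promoters, by that transcript. The OCRs have at least 50 normalized counts in the higher group. The circles of the groups do not overlap at any OCR, a condition of their choice.

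Lost OCRs were spread over many genes. By nearest coding start, 6424 genes had a lost OCR, 3964 a gained OCR and 1773 both, of 18920 genes with an OCR tested. Tenm4, a teneurin that guides neuronal connections, came first with 27 of 136 OCRs lost and a median of -2.23 among these 27. Auts2 followed with 22 of 101, Dpp6 with 21 of 49, Rapgef5 with 21 of 62, Tfcp2l1 with 16 of 51 and Cdh13 with 15 of 41. Adgrl2, Cdh9, Epha4 and Hs6st1 had 14 each, a number that other genes shared, with the tie resolved by name. Dpp6, an accessory subunit of potassium channels, had no gained OCR and the highest lost share of the 10, 42.9%. Tfcp2l1 belongs to the naive pluripotency circuit, and its 16 lost OCRs had a median log2 fold change of -0.12 at 6 h of SOX2 depletion. The median there was -0.08 for Hs6st1 and lay between -2.16 and -0.83 for the other 8 genes.

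Among genes near many gained OCRs, Bhlhe40, a transcriptional repressor of the clock and hypoxia responses, had 17 of 34 OCRs gained and a median log2 fold change of 1.23 among these. Rreb1, a zinc finger protein downstream of RAS signalling, had 17 of 75, and Hes1, a repressor downstream of NOTCH, had 15 of 67 with none lost. Gadd45g had 13 of 44, Arhgef10l 13 of 59, Kazn 13 of 60 and 1600014C23Rik 13 of 33. Grik3 had 15 of 90 with 5 lost. Celsr1 had 12 of 34 and Gse1 12 of 100, again with ties resolved by name. The gained OCRs of each of these 10 genes had medians between 0.97 and 1.46 in log2 units.

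Gene lists give the same OCRs by known role. For each listed gene the OCR with the lowest adjusted p was taken, and the steepest and largest changes of the lists are those among these OCRs. The 14 lists, without ribosomal protein genes, hold 149 annotated genes with 2958 OCRs, of which 292 (9.87%) were lost and 164 (5.54%) gained, against 7.97% and 4.12% of all OCRs. Their 166 coding promoter OCRs included 6 lost and 4 gained, beside 1.01% lost and 3.1% gained of all 15808 coding promoter OCRs. At least 1 lost OCR was found at 90 of the 149 genes, beside 6424 of all 18920 genes with an OCR tested. The number of OCRs per gene, which enters this count, was not matched. Ribosomal protein genes, listed as housekeeping genes, had 28 lost (4.43%) and 22 gained (3.48%) of 632 OCRs, and 0 lost and 1 gained of 76 promoters.

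Of 107 OCRs nearest to Pou5f1, Sox2 or Nanog 8 were lost (7.48%) and 3 gained (2.8%), beside 7.97% and 4.12% of all OCRs. Their median log2 fold change was -0.09, which became 0.01 with GC offsets. None of the 6 OCRs of Pou5f1 was lost. The OCR that spans its start, at chr17:35503682-35506247, had a mean of 1070 counts at NT and 1220 at 6 h (0.19, adjusted p = 0.742, edgeR). An OCR 17662 bp upstream of Pou5f1 rose from 72.5 and 61.7 to 129 and 113 counts (0.85, adjusted p = 0.00671, edgeR), a call that did not hold without NT replicate 2 (0.76) or without 6 h replicate 1 (0.75).

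At Nanog 1 of 16 OCRs was lost, the promoter, which went from 309 and 368 counts to 223 and 213, a log2 change of -0.64 (SE 0.22, adjusted p = 0.0448, edgeR). This call did not hold in 9 of 15 other settings, among them each left-out library. The OCR 4745 bp upstream of Nanog, the strongest of the gene, had a mean of 923 at NT and 900 at 6 h (-0.04, adjusted p = 0.966, edgeR). At Sox2 7 of 85 OCRs were lost and 2 gained. The steepest lay 180214 bp upstream at chr3:34469969-34470444 and fell from 39.0 and 43.1 to 2.45 and 4.69 counts (-3.47, adjusted p = 7.24e-08, edgeR).

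Of the 16 naive pluripotency regulators 15 had a lost OCR, beside 6424 of all 18920 genes, with the number of OCRs per gene not matched. The list lost 90 of 621 OCRs (14.5%) and gained 20 (3.22%), with a median of -0.20, beside 7.97% and 4.12% of all OCRs. This was the highest lost share of the lists, but with GC offsets that of formative epiblast genes was higher, at 21 of 143 against 79 of 621, and with the block added so was that of neural genes, at 23 of 108 against 120 of 621. Tfcp2l1 lost 16 of 51, Klf5 13 of 65, Myc 12 of 65, Mycn 10 of 62 and Nr5a2 8 of 67. Stat3, which carries the LIF signal, had none lost of 10, and Esrrb had 4 lost of 60. One of the 19 promoter OCRs of the list was lost, that of Dppa3.

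Among the OCRs with the lowest adjusted p of each gene, the steepest loss of this list was downstream of Mycn at chr12:12926809-12928008. It went from 171 and 190 to 19.6 and 12.9 counts (-3.47, adjusted p = 9.3e-11, edgeR). The OCR 25457 bp downstream of Myc, at chr15:62012293-62013085, fell from 233 and 303 to 18.4 and 36.9 (-3.27, adjusted p = 1.84e-11, edgeR). This Myc OCR also fell at 6 h of NANOG depletion, from 259 and 237 to 27.4, 44.3 and 29.5 (-2.99, adjusted p = 3.51e-09, edgeR). Its OCT4 minus NANOG difference was -0.28 (adjusted p = 0.836, edgeR). Beside Dppa3, a maternal factor also called Stella, the OCR 1740 bp upstream fell from 262 and 279 to 52.7 and 41.0 (-2.53, adjusted p = 2.42e-09, edgeR). The group values were well separated at each of these OCRs. The OCR 11973 bp downstream of Klf4 (-2.58) and an intronic OCR of Tfcp2l1 (-1.94) each hold an octamer in the summit window.

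Classic OCT4-SOX2 targets lost 30 of 245 OCRs (12.2%) and gained 11 (4.49%), and formative epiblast genes lost 19 of 143 (13.3%) and gained 4 (2.8%). Of all OCRs 7.97% were lost and 4.12% gained. Fbxo15 lost 7 of 30 and Tdgf1 3 of 4, while Lefty1, Lin28a and Trp53inp1 lost none of 4, 6 and 12. Jarid2, a partner of Polycomb complex PRC2, had 13 lost and 9 gained of 125. Its steepest OCR, in an intron at chr13:44751682-44752373, went from 72.5 and 130 to 10.4 and 5.86 counts (-3.64, adjusted p = 4.59e-10, edgeR). The OCR 14239 bp upstream of Foxd3, a factor that primes the epiblast, fell from 81.8 and 116 to 7.96 and 8.21 (-3.61, adjusted p = 1.23e-10, edgeR). Otx2 lost 5 of 29 and Fgf5 none of 3.

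Lineage lists had both directions. Trophectoderm genes lost 34 (8.46%) and gained 23 (5.72%) of 402 OCRs. Primitive endoderm genes lost 17 (7.66%) and gained 17 (7.66%) of 222, beside 7.97% lost and 4.12% gained of all OCRs. Hand1, a factor of trophoblast giant cells, gained 4 of 27 and lost none, the largest from 20.3 and 14.4 to 74.1 and 73.9 counts (4.27-fold, adjusted p = 7.49e-07, edgeR). The keratin genes Krt8, Krt18 and Krt19 gained 1 of 6, 3 of 9 and 2 of 5 with none lost, while Krt7 lost 1 of 4 and gained none. Losses outnumbered gains at Tfap2a (5 and 0 of 31), Id2 (4 and 0 of 28), Ets2 (3 and 0 of 28) and Eomes (4 and 1 of 28). Tfap2c, which acts both in naive cells and in trophoblast, lost 5 and gained 3 of 55 OCRs, the steepest loss from 496 and 411 to 67.3 and 49.8 (-2.95, adjusted p = 3.56e-09, edgeR). Cdx2, the main trophectoderm regulator, had 1 lost and none gained of 5. Gata6 gained 3 of 28 and lost none, and Sox17 gained 4 of 13 and lost 1. In the same primitive endoderm list Dab2 lost 4 and gained 1 of 26, Lama1 lost 4 and gained 1 of 17, Pdgfra lost 3 and gained 2 of 22, and Gata4, Foxa2 and Sox7 each lost 1 and gained none.

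Mesoderm and primitive streak genes lost 14 of 128 OCRs and gained 3, and neural genes lost 14 of 108 and gained 4. The 4 lineage lists had medians between -0.01 and 0.06, against 0.01 for all OCRs, and that of trophectoderm genes was -0.01 with scaling to total counts. With GC offsets the median of the neural list was -0.16, 0.20 below that of all OCRs (difference -0.20), and that of the primitive endoderm list was 0.11. Epigenetic modifiers lost 29 of 284 (10.2%) and gained 15 (5.28%), a count that shares Jarid2 with the classic targets. Tet2, which oxidises methylcytosine, lost 5 of 43 with none gained.

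Beside 4.12% gained and 7.97% lost of all OCRs, LIF and BMP response genes gained 33 of 262 (12.6%) and lost 13 (4.96%), with a median of 0.17. This was the highest gained share of the lists, but with GC offsets it was 26 of 262, a smaller share than the 23 of 197 of cell adhesion and junction genes. Smad6 gained 12 of 33 and Smad7 12 of 90, both inhibitors of the pathway, and Socs3, which restrains the LIF receptor, gained 5 of 16. An OCR 32739 bp upstream of Id3 rose from 17.1 and 7.45 to 96.7 and 79.2 counts (2.90, adjusted p = 1.05e-06, edgeR). Smad7 also held 2 lost OCRs, among them one 6495 bp upstream at chr18:75360128-75361380, which fell from 308 and 327 to 26.3 and 32.8 (-3.42, adjusted p = 1.13e-10, edgeR). Lifr lost 3 and gained 1 of 46 and Il6st, the shared receptor subunit, lost 4 of 27.

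Immediate early and AP-1 genes gained 12 of 143 OCRs (8.39%) and lost 3 (2.1%), with a median of 0.18, beside 4.12% gained and 7.97% lost of all OCRs. Fos gained 4 of 22, Fosl2 3 of 20, Jun 2 of 18 and Atf3 2 of 12, with 1 lost at each of the last pair, while Egr1, Jund and Ier2 had none called. Beside Fosl2 an OCR rose from 9.35 and 7.98 to 50.2 and 36.4 counts (2.32, adjusted p = 1.86e-05, edgeR). Upstream of Atf3 an OCR rose from 32.7 and 70.7 to 213 and 305 (2.29, adjusted p = 1.82e-06, edgeR). The p53 targets gained 6 (6.98%) and lost 3 (3.49%) of 86.

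Hippo-YAP targets lost 11 (7.48%) and gained 6 (4.08%) of 147 OCRs, close to the 7.97% and 4.12% of all OCRs. Adhesion genes lost 20 (10.2%) and gained 16 (8.12%) of 197. An intronic OCR of Lats2, the kinase that restrains YAP, fell from 329 and 287 to 14.7 and 15.8 counts (-4.32, SE 0.31, adjusted p = 1.21e-12, edgeR). It was the 1 lost OCR of the 19 of Lats2, of which 1 other was gained. Ccn2, a YAP target once called Ctgf, lost 5 of 21, including an OCR 36884 bp upstream of its start that fell from 85.0 and 85.1 to 7.96 and 8.21 (-3.37). Amotl2 gained 3 of 22 and lost none, with the largest at 2.14. Cdh2, the gene of N-cadherin, lost 12 and gained 2 of 50 with the steepest loss at -3.53, while Cldn4, a claudin of tight junctions, gained 4 of 8 with the largest at 1.92.

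Little was called between 2 h and 6 h. Tested directly, 5543 OCRs were lower and 2576 higher at 6 h than at 2 h with an unadjusted p under 0.05 (edgeR's quasi-likelihood test). Together these are less than the share of 0.05 expected if no OCR changed. After adjustment 3 OCRs were lower and 2 higher, 0.0018% and 0.0012% of the OCRs tested. When blocked on the replicate number, 808 were lower and 271 higher, and without 6 h replicate 1 the numbers were 0 and 1. The 5 were looked up after their values were seen. Myc (-1.68), Teddm3 (-1.63) and Ucma (-1.96) were nearest to the lower OCRs, and Tmem132c (1.86) and Pllp (1.49) to the higher, with log2 fold changes of 6 h against 2 h. The Myc OCR had 87.2 and 91.4 counts at 2 h against 18.4 and 36.9 at 6 h, and the Tmem132c OCR 43.2 and 23.6 against 132 and 104.

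The comparisons of each time with NT share the NT libraries, so they are given side by side. At the OCRs lost at 6 h the median log2 fold change was -1.20 after 2 h, -1.61 after 6 h and -1.89 after 24 h. At the OCRs gained at 6 h it was 0.83, 1.15 and 0.88. Both sets were chosen by their change at 6 h, so the size of the 6 h medians is partly built in. The order of these medians over time is thus no result about timing. The 2 libraries of 24 h had medians of 11.6 and 12.4 counts at lost OCRs, beside 13.5 and 14.7 at 6 h. The Tmem132c OCR stood at 448 and 355 counts at 24 h and the Tex13c1 OCR at 8.70 and 7.72. The 24 h libraries held 7790459 and 6378962 counts and were the shallowest of the line.

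The OCRs were then followed in the SOX2-FKBP line, which has its own NT libraries. At 6 h of SOX2 depletion 11360 OCRs were lost and 1964 gained, 6.83% and 1.18% of the OCRs tested. Of the 13260 OCRs lost after OCT4 depletion 6405 were also lost after SOX2 depletion, 48.3% of the OCT4 set and 56.4% of the SOX2 set. Of the gained OCRs 510 were gained in both, 7.44% of the OCT4 set and 26.0% of the SOX2 set. The median log2 fold change after SOX2 depletion was -1.06 at OCT4-lost and 0.30 at OCT4-gained OCRs, against 0.08 over all.

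The difference between the lines was tested itself. The change at 6 h was more negative in OCT4-FKBP cells at 1410 OCRs (0.847% of those tested) and less negative at 3135 (1.88%), or at 3788 and 6981 in the blocked fit. The first of these counts was 727 without NT replicate 2 and 791 without 6 h replicate 2. The sets lost and gained after OCT4 depletion were chosen by a change that enters this difference, so an excess on the OCT4 side is partly built in and the next counts are a description. Of the OCT4-lost OCRs 1260 (9.5%) lost more after OCT4 than after SOX2 depletion, and 110 lost less. Of the OCT4-gained OCRs 1196 (17.4%) gained more after OCT4 depletion and 0 gained less. The lines differ in parental cells as well as in the tagged factor, which cannot be told apart here. In SOX2-FKBP cells the deviations of same-numbered NT and 6 h libraries, on which the block rests, correlated at 0.12.

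Lats2 gives an example. After SOX2 depletion it had 249 and 269 counts at NT and 228 and 230 at 6 h, a log2 fold change of -0.17, and the difference between the lines was -4.15 (SE 0.40, adjusted p = 2.24e-08, edgeR). At the Tex13c1 OCR SOX2 depletion took 99.7 and 97.7 counts to 42.4 and 41.4, a smaller loss by 4.40 log2 units (difference -4.40, SE 0.50, adjusted p = 3.41e-07, edgeR). The Tfcp2l1 OCR, with an octamer and no composite motif, had 69.6 and 69.2 counts at NT and 71.0 and 64.8 at 6 h of SOX2 depletion (log2 fold change -0.03, SE 0.28, adjusted p = 0.976, edgeR), and the difference was -1.90 (adjusted p = 0.00322, edgeR).

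By motif, the lines diverged at octamers. OCRs with an octamer and no composite motif had a median of -0.55 after OCT4 depletion, -0.07 after SOX2 depletion and -0.01 after NANOG depletion. OCRs with the composite motif had medians of -1.15, -1.12 and -0.10, and OCRs with a SOX motif alone -0.04, -0.11 and 0.00. These medians are descriptions over OCRs that share their libraries, and their differences were not tested.

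Some OCRs moved in opposite directions. An OCR 101186 bp upstream of Sox17, a primitive endoderm factor, rose after OCT4 depletion from 46.0 and 26.6 to 113 and 116 counts (1.69) and fell after SOX2 depletion from 66.2 and 67.8 to 23 and 25 (-1.47, adjusted p = 0.00323, edgeR). The difference was 3.16 (adjusted p = 2.02e-05, edgeR). The Ninj1 OCR had 17.9 and 12.2 counts at NT and 113 and 167 at 6 h after OCT4 depletion, beside 7.54 and 19.0 at NT and 4.61 and 2.34 at 6 h in the SOX2-FKBP line, where the change did not pass the test.

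In NANOG-FKBP cells 1797 OCRs were lost and 61 gained at 6 h, 1.08% and 0.0367% of those tested. They included 875 of the OCT4-lost OCRs (6.6%, and 48.7% of the NANOG set) and 13 of the gained (0.19%, and 21.3%). The median change at OCT4-lost OCRs was -0.16. The Myc OCR described above and the Speer2 OCR were lost in both lines. At Speer2 NANOG depletion took 118 and 120 counts to 22.3, 40.9 and 27.3 (-2.12, adjusted p = 4.85e-05, edgeR). The OCT4 minus NANOG difference at Speer2 was -2.25 (adjusted p = 0.00884, edgeR). The change was more negative in OCT4-FKBP cells at 6011 OCRs (3.61%) and less negative at 2235 (1.34%), or at 9546 and 6061 with the block. The second was 1408 without NT replicate 1 and 1468 without 6 h replicate 2. The NANOG-FKBP libraries at 6 h ranged from 3272168 to 12437876 counts, and 13.18% of the counts of 6 h replicate 2 were mitochondrial. The share of chromosome 8 was 5.52% and 7.1% in NT replicates 1 and 2, and 5.66%, 5.8% and 7.02% in 6 h replicates 1, 2 and 3. The block thus joins NANOG-FKBP libraries of unlike shares under replicate number 2. The part of these differences in the result was not tested.

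**Figure D5:**
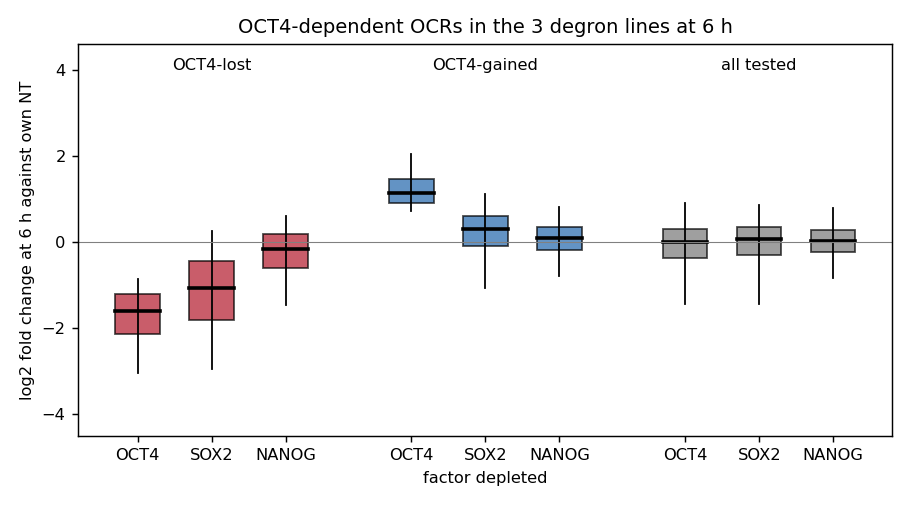
Log2 fold change at 6 h against the NT libraries of the same line for OCRs lost or gained after OCT4 depletion and for all OCRs tested, in the OCT4-, SOX2- and NANOG-FKBP lines. Boxes span the 25th to 75th percentile of OCRs, bars the 5th to 95th, and thick lines mark medians, which at OCT4-lost OCRs are -1.61, -1.06 and -0.16. The OCT4-FKBP boxes show how the sets were chosen.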

How the data were processed

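The deposited counts are raw whole numbers of ATACseq fragments per peak for 31 libraries. Per the methods and labels, paired-end reads were mapped by the authors with BWA 0.7.17-r1188 (mm10), those under mapping quality 10 and duplicates (Picard 2.12.0) were dropped, and the authors called peaks with MACS2 on merged libraries. Summits came from the deposited peak list. The other 14 samples were not analysed here. OCRs exceeding 10 counts in over 6 of 27 libraries (3 lines, NT, 2, 6 and 24 h) were fitted with edgeR 4.0.16 (R 4.3.3, TMM, quasi-likelihood F-test, Benjamini-Hochberg adjustment over all OCRs). Normalized counts are scaled to a common library size. Standard errors are the log2 fold change divided by the root of F. The fit was checked on simulated data in which 200 of 166430 OCRs changed. It made 126 calls, of which 8 were false. It recovered 45 of 50 OCRs with a true log2 change of -2, 7 of 50 at -1, 16 of 50 at 1 and 50 of 50 at 2. Far fewer OCRs changed there than were called in the real comparison, which makes the adjusted threshold stricter. The simulation also had no pairing of replicates, so its recovery rates do not describe the real fit. Alternatives included DESeq2 1.42.0. Genes and promoters are from GENCODE vM21, sequence from RefSeq's GRCm38.p6. Same-numbered OCT4-FKBP libraries deviated together (correlation 0.22 to 0.48 over 6 pairs of conditions), so the number was taken as a pairing. The block used the number in all 3 lines, although between NT and 6 h the correlation was 0.12 in SOX2-FKBP and 0.09 in NANOG-FKBP cells. Blocked counts that compare lines carry this limit. The main design has no block, as in the study. Named OCRs are the 8 distal and 6 promoter OCRs with the largest change each way, among those with at least 50 normalized counts in the higher group and no overlap between groups, the 10 genes nearest to most lost and most gained OCRs, and for each listed gene the OCR with the lowest adjusted p and the strongest promoter OCR, of which those with the largest changes and well-known genes are given. One of the distal OCRs this names is not reported here. The comparison and lists were chosen with earlier results of these data known. The repeat shares, the scaling medians and the motif shares with GC offsets were added after the data were seen. Aliases in the lists without a match (Mir290a, Oct6, Ctgf, Cyr61) have no OCR.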

Additional observations from a re-analysis of the deposited data

Results flagged for a closer look

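At 25 of the 49 named OCRs the log2 change at 6 h differed between the OCT4- and SOX2-FKBP lines by a direct test (edgeR, adjusted p threshold 0.05), at 8 of the 27 that fell and 17 of the 22 that rose. The OCRs were named by their change after OCT4 depletion, so a larger change there is partly built in. Differences are given as OCT4 minus SOX2 on the log2 scale.

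Among OCRs that fell, the difference was -4.40 at Tex13c1, -4.15 at Lats2, -2.32 at the AC131065.2 promoter, -1.95 at Ncam2, -1.90 at Tfcp2l1, -1.90 at Ccn2, -1.76 at Dppa3 and -1.46 at Myc. Among distal OCRs that rose, it was 5.05 at Ninj1, 4.10 at Ctnnb1, 3.25 at Tmem132c, 3.16 at Sox17, 2.87 at Lrrc8c, 2.73 at the gained Lrmda OCR, 2.60 at Mmp15, 2.19 at Amotl2, 2.08 at Ttll12, 2.04 at Id3 and 1.87 at Hand1. Among promoters that rose, it was 3.63 at Gm28884, 2.64 at Tnnt3, 2.56 at Tnni1, 2.37 at Gm26608, 1.98 at Klhdc7a and 1.89 at Fxyd2.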

How the results depend on the processing

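All 49 named OCRs kept their sign in every one of 15 settings that gave them a value, and 47 kept their call in each. The exceptions were the Nanog promoter (-0.80 to -0.48) and the Pou5f1 OCR (0.75 to 1.24). Counts depended more on the processing, and the cause was not tested. Of 13260 lost and 6859 gained OCRs, testing OCRs with a mean of at least 30 counts, which leaves fewer to call, gave 7826 and 4245. The replicate block gave 14649 gained, 500 lost promoters and 2325 gained promoters, and with GC offsets added 16644, 771 and 995. The fit of the OCT4 line alone gave 4572 gained and 304 gained promoters, the fit of the compared groups alone 340 gained promoters, and GC offsets without the block 390. Within 1000 bp of a start 450 promoters were lost, and 159 with coding starts only. For 6 h against 2 h, total counts, the line alone and the compared groups alone gave 0 lower and 0 higher OCRs, DESeq2 gave 10 lower, the block 808 and 271, and the block with GC offsets 651 and 396. For OCT4 minus SOX2 the block gave 3788 and 6981 and with GC offsets 4254 and 6938. For OCT4 minus NANOG it gave 9546 and 6061, and 6185 less negative with GC offsets.

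Leaving out 1 library at a time gave 8561 to 12052 lost and 4029 to 5172 gained OCRs, 177 to 231 lost and 256 to 744 gained promoters, 0 to 3 OCRs lower and 1 to 2 higher at 6 h than at 2 h, 727 to 1329 more and 2357 to 3238 less negative than in the SOX2 line, and 4283 to 5462 more and 1408 to 2354 less negative than in the NANOG line. The group left with 1 library is assumed to vary like the others. The depth was 12917698 to 17575631 counts. By rank of level 3.73% of the lowest of 5 equal groups of OCRs were lost, 11.1% of the next to highest and 9.75% of the highest, and the part of depth in this was not tested.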
